A study of Mus musculus with 10 samples.

Results

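Sleep deprivation was followed in mouse blood by RNA sequencing, and the blood taken after 24 h of sleep deprivation (SD 24 h) was compared with that taken after 6 h (SD 6 h), with 12 h (SD 12 h) as the middle point. These were 3 of the 10 libraries of the study, chosen by their labels. All were from C57/BL6J mice whose blood was drawn behind the eye into EDTA under pentobarbital. Each library held RNA from the blood of 3 mice of its group, so every time had 1 library and a difference between 2 times has no replicate behind it. A second method, a sleep restriction reported earlier and labelled SASD, had libraries at the same 3 times from pools of the same size and strain, and was used to ask whether the same interval looked alike under it. The control library was not used. The labels give the cell type as leukocyte. The procedure that kept the mice awake, their sex and age and the clock time of sampling were not given in the sources used, so hours of SD and hour of the day cannot be told apart.

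Blood holds several populations that turn over at different speeds. Neutrophils and classical monocytes are short-lived cells of innate immunity that are stored in the bone marrow and can be released within hours, neutrophils through the chemokine receptor CXCR2 and monocytes through CCR2. Adrenal glucocorticoids, which follow the daily rhythm and rise under stress, move neutrophils into the blood and lymphocytes out of it. In RNA from whole populations of cells, a higher level of a gene can come from more cells of a type or from more RNA per cell, and these cannot be told apart here.

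The 3 libraries were close in depth, with 10926554 counts over all genes at 6 h, 10445615 at 12 h and 11141786 at 24 h. Haemoglobin genes took 6.50% of counts at 6 h, 4.20% at 12 h and 5.64% at 24 h, so RNA of red cells was present despite the leukocyte label, and the 12 h library held the least of it. Olfactory receptor genes, which blood cells are not known for, had a count in 39, 47 and 35 of 1134 genes at 6, 12 and 24 h, near the level in the SASD libraries of the same times. Levels are given below in CPM, the counts scaled to equal library size, after TMM scaling, which corrects for differences in library make-up. Values of 3 libraries are in the order 6, 12 and 24 h. A ratio of 24 h over 6 h is followed in brackets by its exact 95% counting interval, which covers counting error and not the difference between mice.

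Among genes that differed at least 2-fold, many more were higher than lower at 24 h. Genes entered a ratio where their count averaged 25 or more over both libraries. Of 11478 such genes, 374 were at least 2-fold higher at 24 h than at 6 h (3.26%) and 55 at least 2-fold lower (0.479%). Without that cut-off 47% lay above 0 and 53% below, and the median log2 ratio over all these genes was -0.02. The first step, 12 h over 6 h, had 129 genes 2-fold higher (1.13% of 11447) and 39 lower (0.341%). The second, 24 h over 12 h, had 163 higher (1.43% of 11437) and 62 lower (0.542%). These splits depended on the count minimum: at a minimum mean count of 1 the second step had 695 higher and 896 lower, and 24 h over 6 h had 950 higher and 665 lower, while at a minimum of 100 the lower genes of 24 h over 6 h numbered 10. For scale, any 2 of the 7 libraries of SD and SASD with 6, 12, 24 or 120 h differed 2-fold in 69 to 1059 genes, with a median of 342 over 21 pairs. SD 24 h and SD 6 h differed in 437 genes on the scaling used for those pairs, and SD 6 h and SASD 6 h in 112.

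A trend over the 3 times, fitted on the log2 of the hours (edgeR's quasi-likelihood test, adjusted p under 0.05 by Benjamini-Hochberg), called 394 of 12961 genes rising (3.04%) and 25 falling (0.193%). Below, "rose" and "fell" are used only of genes this test called. With 1 library per time the fit had 1 residual degree of freedom of its own and took most of its estimate of spread from the other genes. Departure from a line over the 3 times counted as spread. Under 4 other settings the number rising was more than 1.5 times lower: 151 with DESeq2's Wald test (2 falling), 158 with a minimum mean count of 100 (4 falling), 233 with hours on a linear scale (18 falling) and 244 with DESeq2 size factors (6 falling). At an unadjusted p under 0.05 there were 1442 genes, against 648.05 that unchanged genes would give. Of the 374 genes that were 2-fold higher, 272 were called rising, and of the 55 lower ones 11 were called falling. When the SASD libraries at 6, 12 and 24 h shared the fit, the SD slope was called in 0 genes in either direction by edgeR, with 963 at an unadjusted p under 0.05, so each rise or fall below rests on the spread of the 3 SD libraries alone.

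**Figure D1:**
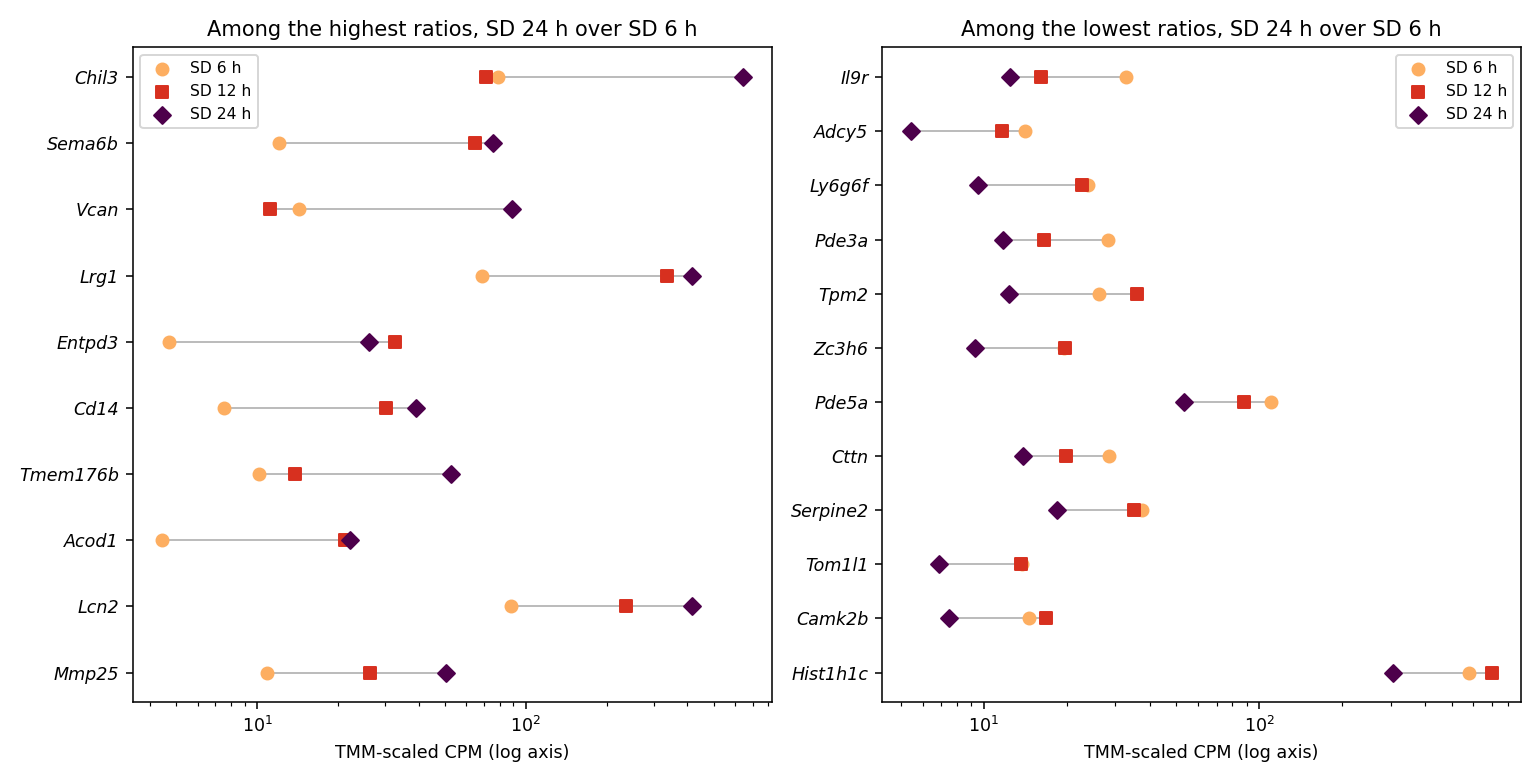
Level in TMM-scaled CPM (log axis) at 6, 12 and 24 h of SD of genes among those with the 12 highest and the 12 lowest ratios of 24 h over 6 h in abundant genes, with 1 point for each library of 3 pooled mice. Lrg1 and Lcn2 were already high at 12 h, whereas Chil3 and Vcan at 12 h were slightly below their 6 h level and then reached 641 and 88.8 CPM at 24 h.

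Markers of mature neutrophils were higher at 24 h in all 22 measured members, where 47% of all genes lay above 0, with a median log2 ratio of 1.30 and a range from 0.51 to 2.77. Of these, 17 were at least 2-fold higher and 16 rose, against 3.26% and 3.04% of all genes. Their summed level was 4455, 8394 and 9968 CPM at 6, 12 and 24 h. Lrg1, a secreted glycoprotein stored in neutrophil granules, had 68.8, 335 and 417 CPM. The gene lies at chr17:56119678-56122001 (minus strand, GENCODE on GRCm38). It was 6.07-fold higher at 24 h than at 6 h (5.61 to 6.56) and rose (log2 fitted change from 6 to 24 h 2.57 ± 0.42, standard error, edgeR adjusted p = 0.00314). Most of its difference was present by 12 h. Ly6g, the surface protein by which mouse neutrophils are usually identified, had 1.47, 8.43 and 11.1 CPM and was 7.53-fold higher at 24 h (4.46 to 13.6), a wide interval because the 6 h library held only 16 counts.

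S100a8 and S100a9 encode the paired subunits of calprotectin, an abundant cytosolic protein of neutrophils and monocytes that sequesters metals. S100a8 had 419, 739 and 1068 CPM and S100a9 had 653, 1248 and 1896 CPM. Both rose, with a higher level at each step and log2 fitted changes from 6 to 24 h of 1.35 ± 0.25 for S100a8 and 1.54 ± 0.29 for S100a9 (standard errors, edgeR adjusted p = 0.00686 and 0.00736). Cxcr2, the receptor through which neutrophils leave the marrow, had 274, 574 and 668 CPM and rose. Retnlg, a resistin-like protein of neutrophils, had 112, 232 and 362 CPM and rose. Csf3r, the receptor of the granulocyte growth factor G-CSF, had 953, 1819 and 1630 CPM. It was higher at 12 h than at 24 h and was not called (edgeR adjusted p = 0.436). Il1r2, a decoy receptor that binds interleukin-1 without signalling, likewise had its highest value at 12 h, with 37.0, 101 and 78.1 CPM. Wfdc17, a small secreted protein of myeloid cells, had 14.8, 43.4 and 48.3 CPM and rose, although it resembles Wfdc21 and reads of the 2 genes may have been lost or confused.

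Genes of neutrophil granules and their precursors were mostly higher at 24 h. Of 18 listed genes 10 passed the count minimum for ratios, with a median log2 ratio of 1.11. Of these 10, 7 were at least 2-fold higher at 24 h, against 3.26% of all genes. Lcn2, which binds bacterial iron carriers, had 88.2, 235 and 415 CPM and rose (log2 fitted change 2.23 ± 0.22, standard error, edgeR adjusted p = 0.000371). Mmp8, the neutrophil collagenase, had 134, 212 and 260 CPM and rose. Cd177, a surface protein of neutrophils, had 24.1, 32.7 and 92.6 CPM and rose, with most of its difference after 12 h. Ltf, the lactoferrin of secondary granules, had 15.1, 8.24 and 10.1 CPM, a ratio of 0.669 (0.522 to 0.856) in the other direction, and Camp, the cathelicidin of the same granules, had only 9, 12 and 12 counts. The primary granule enzymes made by the earliest precursors were near 0: Mpo had 1, 1 and 7 counts, Elane 0, 0 and 1, and Ctsg 2, 0 and 0. Prtn3, the proteinase 3 gene and another of these enzymes, had 2, 6 and 62 counts, a ratio of 30.1 with a counting interval from 7.99 to 254, and was called rising. The whole granule list summed to 1689, 1845 and 4491 CPM, most of it from Lyz2, the lysozyme shared by neutrophils and monocytes, with 1284, 1197 and 2942 CPM. Lyz2 was not called (edgeR adjusted p = 0.0888).

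Classical monocyte markers were also higher at 24 h in all 16 measured members, where 47% of all genes lay above 0, with a median log2 ratio of 1.20. Of the 16, 10 were at least 2-fold higher and 12 rose, against 3.26% and 3.04% of all genes. Their time course differed in its values from that of the neutrophil markers: at 12 h the median log2 ratio to 6 h was 0.14 for the monocyte list and 0.96 for the neutrophil list, and from 12 to 24 h it was 0.79 and 0.25. Ccr2, through which monocytes leave the marrow, had 163, 126 and 498 CPM and was 3.05-fold higher at 24 h than at 6 h (2.90 to 3.22). Fn1, which encodes fibronectin, had 177, 124 and 611 CPM, 3.45-fold higher at 24 h (3.28 to 3.63). Vcan, a large matrix proteoglycan made by classical monocytes, had 14.3, 11.2 and 88.8 CPM, 6.19-fold higher at 24 h (5.22 to 7.38). All 3 genes were lower at 12 h than at 6 h, yet all were called rising (edgeR adjusted p = 0.0197, 0.0221 and 0.00277 for Ccr2, Fn1 and Vcan).

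Ly6c2, the surface marker that defines classical monocytes in mice, had 55.5, 52.9 and 105 CPM and rose, being 1.89-fold higher at 24 h than at 6 h (1.71 to 2.09). Csf1r, the receptor of the monocyte growth factor M-CSF, had 164, 231 and 362 CPM, and Tgfbi, a secreted matrix protein, had 179, 310 and 488 CPM. Both rose and were higher at each step. Cd14, the co-receptor for bacterial lipopolysaccharide, departed from this order. It had 7.54, 30.2 and 39.2 CPM and was the only listed monocyte gene at least 2-fold higher by 12 h; neutrophils also express it. Chil3, a chitinase-like protein made by classical monocytes and by neutrophil precursors, had the largest ratio among abundant genes, here those averaging 100 counts or more over the 3 libraries. The gene lies at chr3:106147554-106167564 (minus strand). It had 78.7, 71.3 and 641 CPM, 8.15-fold higher at 24 h than at 6 h (7.59 to 8.76), and rose (edgeR adjusted p = 0.00192).

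**Figure D2:**
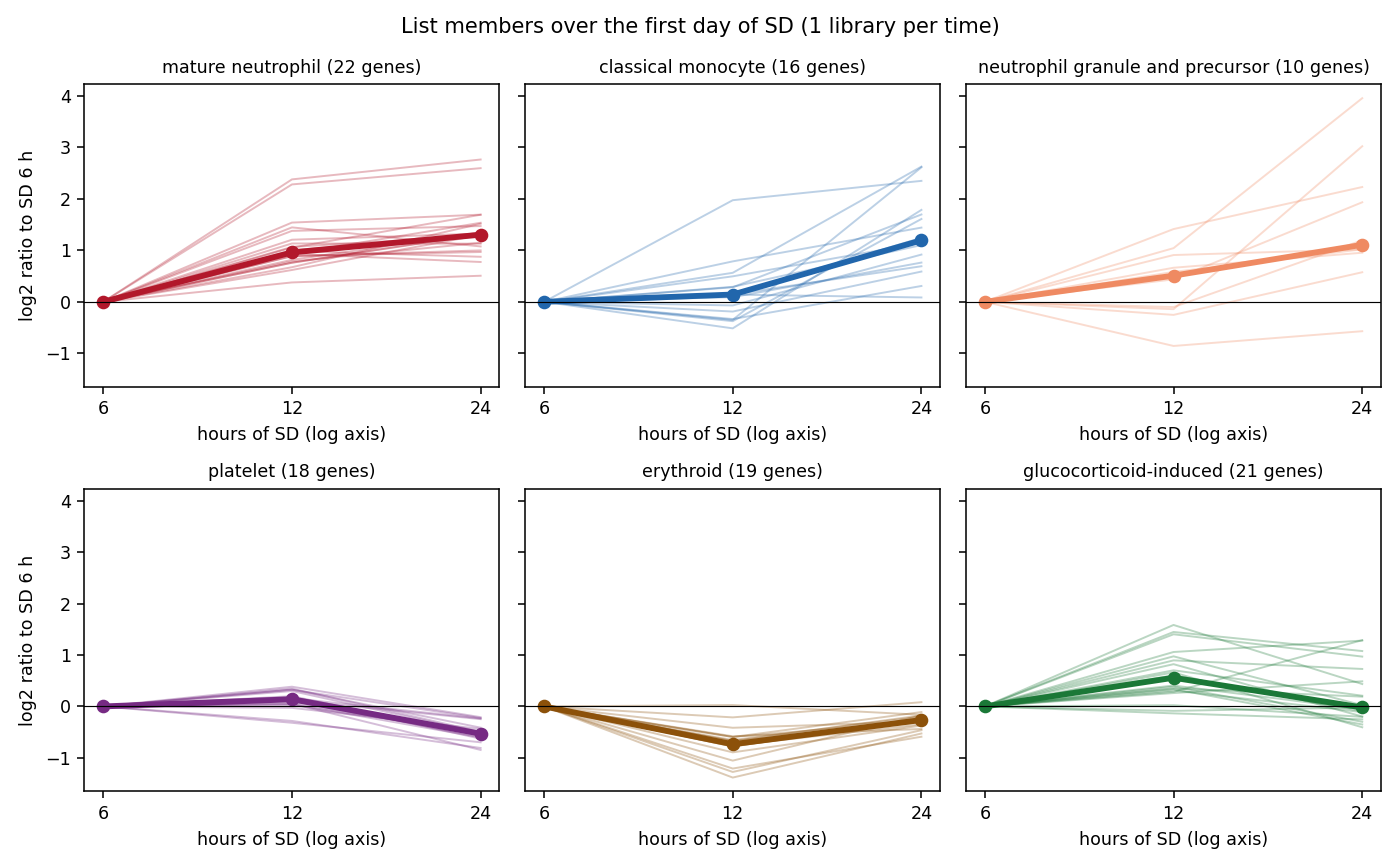
Log2 ratio to SD 6 h at 6, 12 and 24 h of SD (log axis of hours) for 6 gene lists, with thin lines for the measured members, a thick line for the list median and 1 library of 3 pooled mice at each time. The mature neutrophil list reached 0.96 by 12 h and the classical monocyte list 0.14, and both lay above 1 at 24 h, while the erythroid list had its low point at 12 h and the glucocorticoid-induced list its high point.

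The timing of the 2 marker lists can be counted gene by gene among the 2-fold higher genes. Of all 374, 179 had at least a 0.5 share of their log2 change by 12 h, and 52 were at or below their 6 h level at 12 h, with a median share of 0.471. Among the mature neutrophil markers 15 of 17 had that share by 12 h (median 0.776), whereas among the classical monocyte markers 2 of 10 had it (median 0.191) and 3 were at or below their 6 h level. The granule genes lay between, with 3 of 7 and a median of 0.264. These shares use the same 6 h library in both terms, rest on 1 library at 12 h and are a description of 1 series of libraries. The genes of a list are not replicates of each other. Under SASD the median log2 ratio of 12 h over 6 h was -0.32 for the neutrophil list and -0.64 for the monocyte list.

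**Figure D3:**
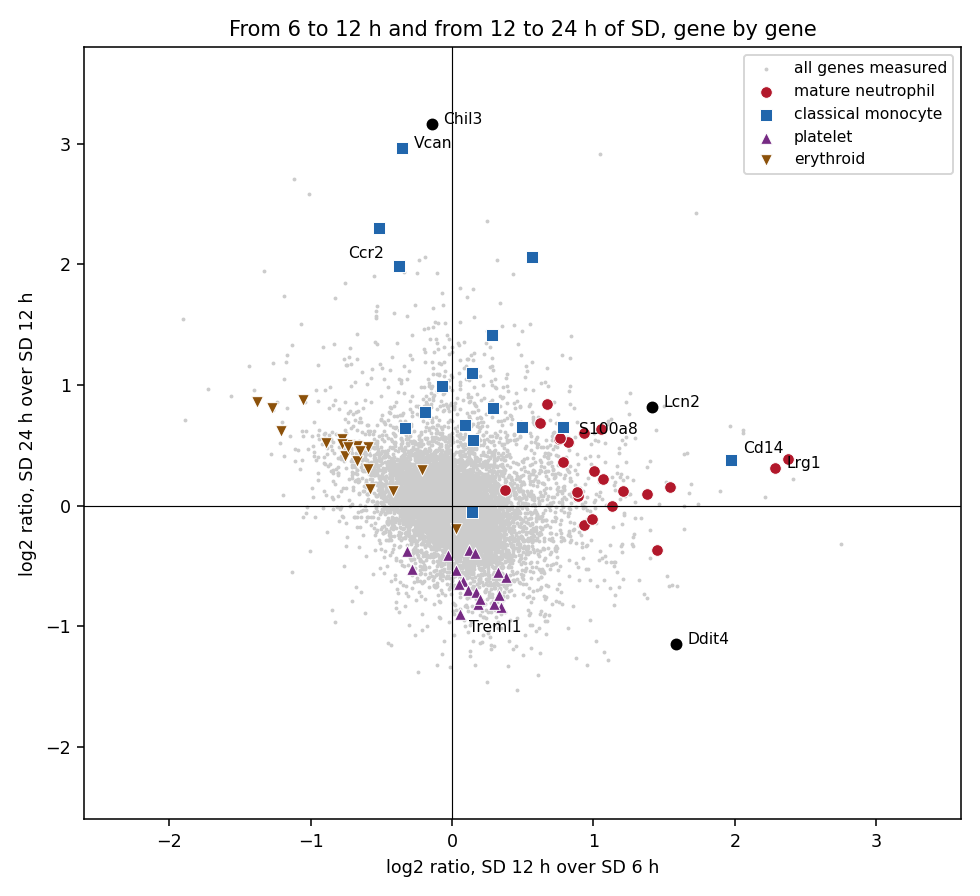
Log2 ratio of SD 12 h over SD 6 h (horizontal axis) and of SD 24 h over SD 12 h (vertical axis) for each gene measured, with the listed neutrophil, monocyte, platelet and erythroid genes coloured and Chil3, Lcn2 and Ddit4 in black. The neutrophil gene Lrg1 lies far to the right (2.28), the monocyte genes Vcan and Ccr2 lie high (2.97 and 1.99) and slightly left of 0, and platelet genes lie below 0 on the vertical axis.

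Promoters are shown for 2 of the early genes and 2 of the late ones, to place their start sites beside the time courses. They were chosen after the values were seen. Each is the 250 bases upstream of the start in RefSeq, on the minus strand of GRCm38.p6, written 5′ to 3′: Lrg1 at chr17:56121947-56122196, Lcn2 at chr2:32387740-32387989, Chil3 at chr3:106167565-106167814 and Vcan at chr13:89742513-89742762. Capitals mark matches on either strand to the motifs TTGCNNAA, bound by the C/EBP factors of the granulocyte lineage, GGAAGT, bound by the myeloid factor PU.1, and ACANNNTGT, the core of the glucocorticoid receptor element.
Lrg1: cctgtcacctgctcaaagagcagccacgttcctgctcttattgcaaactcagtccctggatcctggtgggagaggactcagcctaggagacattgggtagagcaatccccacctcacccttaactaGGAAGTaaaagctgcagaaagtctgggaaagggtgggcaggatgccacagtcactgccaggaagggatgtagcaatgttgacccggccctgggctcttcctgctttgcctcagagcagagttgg
Lcn2: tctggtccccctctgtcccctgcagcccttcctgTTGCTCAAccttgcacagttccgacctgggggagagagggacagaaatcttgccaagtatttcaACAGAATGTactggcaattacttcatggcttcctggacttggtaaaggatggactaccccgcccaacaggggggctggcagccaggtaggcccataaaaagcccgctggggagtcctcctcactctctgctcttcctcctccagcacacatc
Chil3: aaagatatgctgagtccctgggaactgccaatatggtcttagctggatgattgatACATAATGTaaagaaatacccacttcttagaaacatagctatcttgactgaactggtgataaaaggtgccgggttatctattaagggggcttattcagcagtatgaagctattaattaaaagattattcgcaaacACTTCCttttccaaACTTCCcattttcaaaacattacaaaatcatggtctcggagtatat
Vcan: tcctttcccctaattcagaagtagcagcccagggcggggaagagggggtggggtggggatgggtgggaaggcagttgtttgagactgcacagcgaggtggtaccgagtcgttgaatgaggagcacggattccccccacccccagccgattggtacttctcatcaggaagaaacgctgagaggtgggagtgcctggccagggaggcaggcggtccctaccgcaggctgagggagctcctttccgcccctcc
Over all 32851 RefSeq promoters of this length, 9.56% held the C/EBP motif, 19.7% the PU.1 motif and 5.84% the glucocorticoid receptor motif. Lrg1 held 1 PU.1 match, which began 124 bases upstream of the start. Lcn2 held a C/EBP match from 216 bases upstream and a glucocorticoid receptor match from 152. Chil3 held a glucocorticoid receptor match from 195 bases upstream and 2 PU.1 matches from 60 and 46. Vcan held none of the 3 motifs in this window, nor did the windows of Fkbp5 and Ddit4, which are described below. A match is a run of letters, and says nothing here about binding. Positions are counted from the RefSeq starts, which differ from those of GENCODE. In GENCODE, Lrg1 starts at 56122001 and Lcn2 at 32388252, both on the minus strand. The Lrg1 window therefore overlaps its GENCODE gene, and the Lcn2 window lies inside its own.

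Other genes among the 12 highest were likewise split between the 2 steps. Sema6b, a membrane semaphorin, had 12.0, 64.9 and 75.7 CPM, and Acod1, which makes the metabolite itaconate in activated myeloid cells, had 4.41, 21.2 and 22.2 CPM. Both rose, and nearly all of their difference was present at 12 h. Entpd3, an enzyme that breaks down extracellular nucleotides, had 4.69, 32.6 and 26.1 CPM and was not called (edgeR adjusted p = 0.0981). Mmp25, a membrane-anchored metalloproteinase of neutrophils, had 10.8, 26.2 and 50.4 CPM, a nearly even rise that gave it the lowest trend p of the genes named here (log2 fitted change 2.19 ± 0.20, standard error, edgeR adjusted p = 0.000281). A late difference was seen in Tmem176b, a membrane protein of monocytes and dendritic cells, with 10.2, 13.8 and 52.6 CPM, which rose. Outside the 12 highest, the following genes with a low trend p also rose and were higher at each step. Itga5, a chain of the fibronectin receptor, had 18.5, 33.8 and 59.6 CPM. Il1f9, which encodes interleukin-36 gamma, had 37.7, 63.4 and 108 CPM. Ifitm6 had 18.3, 27.1 and 62.2 CPM, and Nhsl2 had 16.0, 25.8 and 51.4 CPM.

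Nonclassical monocytes, which patrol the vessel wall, and dendritic cells showed smaller differences. The nonclassical list had a median log2 ratio of 0.26, and 2 of 13 tested members rose, against 3.04% of all genes. They were Cx3cr1, the fractalkine receptor, with 55.7, 53.4 and 122 CPM, and Treml4 with 19.9, 31.5 and 38.3 CPM. The dendritic list had a median of 0.48 over 11 measured genes, with 3 of them 2-fold higher, against 3.26% of all genes. Flt3, the growth factor receptor of dendritic precursors, had 8.46, 9.39 and 22.0 CPM and rose. Cd209a, a lectin of monocyte-derived dendritic cells, had 5.42, 2.39 and 16.7 CPM, and Siglech, a marker of plasmacytoid dendritic cells, had 3.22, 2.87 and 7.77 CPM. Neither was called, and 7 of the 11 had their lowest value at 12 h, against 31.4% of all genes. Of the eosinophil and basophil list 6 of 14 members were measured, with a median of -0.23. The eosinophil granule proteins Prg2 and Epx were near 0, with 0, 1 and 0 counts of Prg2 and 0, 2 and 1 counts of Epx. Of 9 tested members 2 rose, against 3.04% of all genes. They were Siglecf, a surface marker of eosinophils, with 4.50, 10.4 and 14.2 CPM, and Ear2, a ribonuclease of the eosinophil-associated family, with 14.9, 19.4 and 28.9 CPM.

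Most receptors for inflammatory cytokines were higher at 24 h. The lists shared some genes, so their medians are not separate observations. Il1r2 was in the mature neutrophil, receptor and glucocorticoid-induced lists, and Cd14 in the classical monocyte and the NF-kB and inflammasome lists. The receptor and decoy list had a median log2 ratio of 0.77 over 21 measured genes. Of these, 7 were at least 2-fold higher and 8 rose, against 3.26% and 3.04% of all genes. The median was already 0.83 at 12 h. Csf2rb, the shared beta chain of the GM-CSF, IL-3 and IL-5 receptors, had 128, 270 and 312 CPM and rose, and its near copy Csf2rb2 had 16.2, 33.3 and 48.4 CPM and rose, with the division of reads between the 2 genes uncertain. Il1rap, the shared chain that interleukin-1 receptors need to signal, had 39.4, 87.8 and 101 CPM and rose. The TNF receptor genes Tnfrsf1a, with 92.9, 167 and 192 CPM, and Tnfrsf1b, with 160, 237 and 313 CPM, both rose. In the other direction, Il7r, the receptor of a T cell survival factor, had 316, 358 and 202 CPM and was not called.

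The cytokine and chemokine list had a median log2 ratio of 0.33 over 16 measured genes. Of these, 4 were at least 2-fold higher, and 2 of 19 tested rose, against 3.26% and 3.04% of all genes. Il1b had 196, 456 and 432 CPM, 2.20-fold higher at 24 h than at 6 h (2.09 to 2.32), with all of the difference present at 12 h, and was not called (edgeR adjusted p = 0.0710). The monocyte and neutrophil chemokines Ccl6, with 188, 315 and 442 CPM, and Ccl9, with 416, 355 and 1060 counts, both rose. Cytokines often measured in systemic inflammation were scarce in these cells. Il6 had 3, 1 and 3 counts, Il10 had 0, 0 and 1, Ifng had 15, 16 and 11, and Tnf had 2.67, 2.20 and 2.86 CPM with a 24 h over 6 h ratio of 1.07 (0.628 to 1.84). At such counts a difference would have been hard to detect. Cytokine RNA made in other tissues is not measured here.

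In the NF-kB and inflammasome list the median log2 ratio was 0.26 over 26 genes. Of these, 5 were at least 2-fold higher and 6 rose, against 3.26% and 3.04% of all genes. The members that rose were mostly microbe sensors and inflammasome parts: Tlr2, a receptor for bacterial lipoproteins, had 21.5, 39.4 and 58.5 CPM, Nlrp3, an inflammasome sensor, had 47.4, 75.3 and 89.6 CPM, and Casp4, a caspase that senses lipopolysaccharide, had 19.5, 37.5 and 42.6 CPM. Bcl3, a nuclear regulator of NF-kB, had 53.9, 79.4 and 114 CPM and rose. The complement and coagulation list had a median of 0.86 over 16 genes. Of these, 7 were at least 2-fold higher, and 9 of 17 tested rose, against the same shares of all genes. C3, the central complement component, had 98.8, 90.1 and 252 CPM, C5ar1, the receptor of the chemoattractant C5a, had 84.9, 165 and 173 CPM, and Thbd, the anticoagulant thrombomodulin, had 8.37, 19.8 and 25.5 CPM. All 3 rose. F5, coagulation factor V, went the other way with 446, 445 and 280 CPM and was not called.

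**Figure D4:**
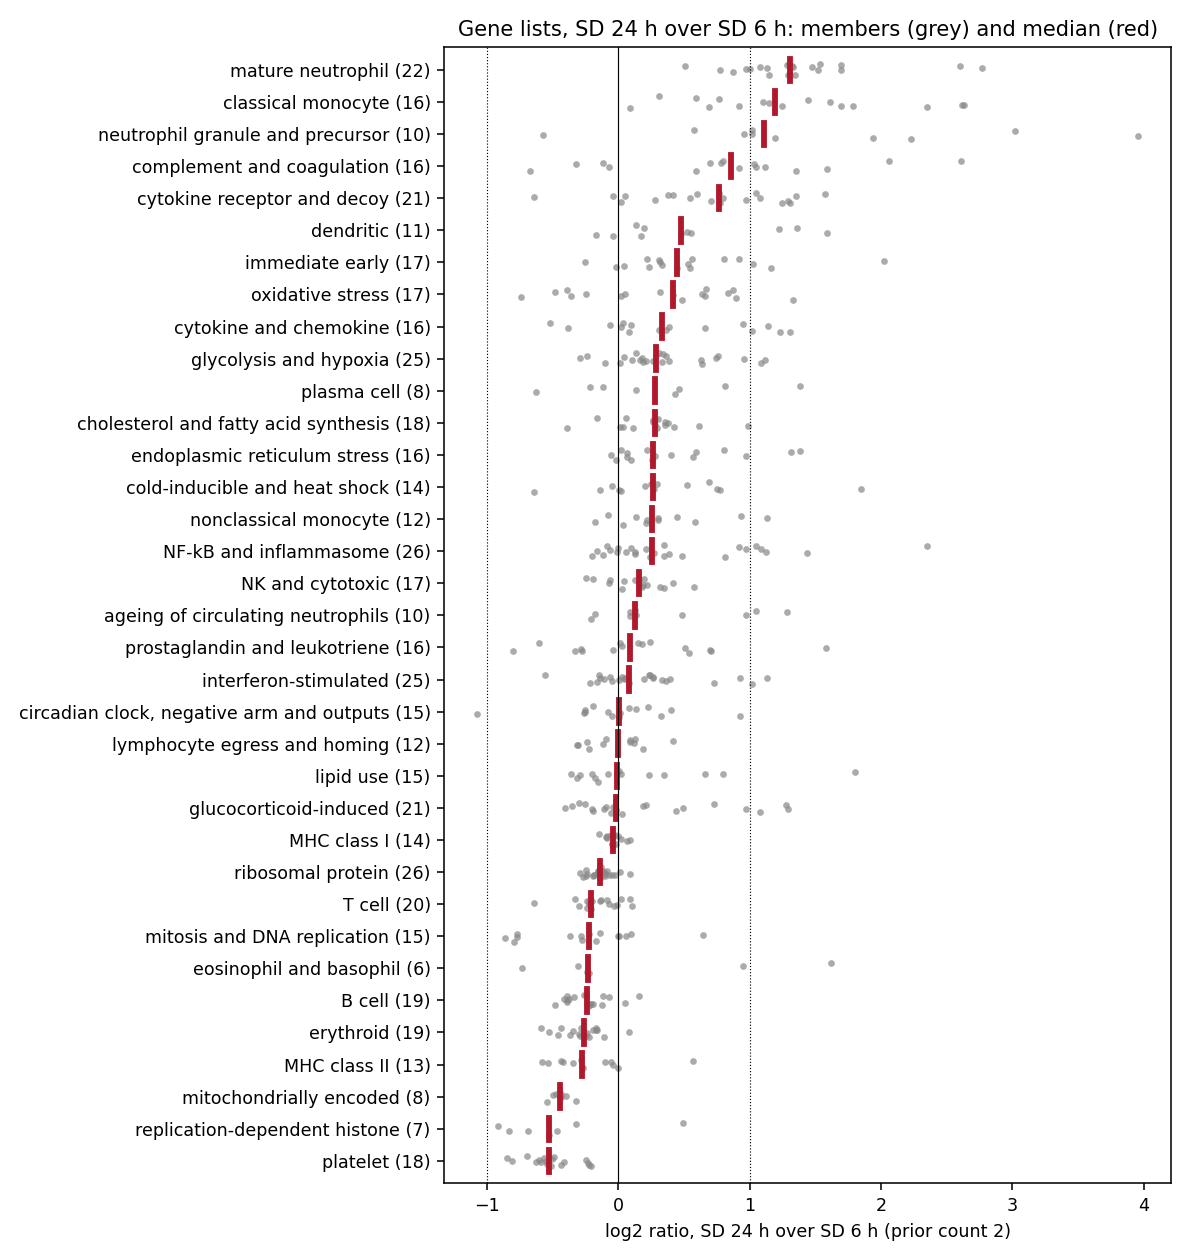
Log2 ratio of SD 24 h over SD 6 h for the members of each gene list, with 1 grey point per measured gene (their number in brackets), a red bar at the list median and dotted lines at 2-fold. The mature neutrophil, classical monocyte, granule, complement and cytokine receptor lists have medians of 1.30, 1.20, 1.11, 0.86 and 0.77, and the platelet and histone lists both have a median of -0.53.

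Interferon-stimulated genes had a median log2 ratio of 24 h over 6 h near that of all genes, 0.08 over 25 genes. At 12 h they were slightly lower, with a median log2 ratio to 6 h of -0.10 under SD and -0.50 under SASD. Of the 25, 16 had their lowest SD value at 12 h, against 31.4% of all genes. Single genes differed by more than the list. Isg15, a ubiquitin-like antiviral protein, had 56.3, 28.8 and 56.3 CPM, and Rsad2, the antiviral enzyme viperin, had 2007, 1178 and 1724 CPM. Within the list 3 of 25 tested genes rose, against 3.04% of all genes. They were Oasl2 with 97.7, 164 and 198 CPM, Oas2 with 37.1, 41.3 and 70.9 CPM and Ifitm3 with 89.5, 108 and 196 CPM.

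Glucocorticoid-induced genes formed a peak at 12 h. Of 21 measured members 16 had their highest value at 12 h, against 30.8% of all genes. The list median log2 ratio was 0.56 for 12 h over 6 h, -0.43 for 24 h over 12 h, and -0.02 for 24 h over 6 h. Under SASD the same medians were 0.20, -0.24 and 0.05, a smaller peak at 12 h. That peak was not particular to this list. Under SASD the ribosomal protein list had 0.25 for 12 h over 6 h and -0.49 for 24 h over 12 h. The T cell list had 0.18 and -0.41 there, while the erythroid list went the other way with -0.31 and 0.99. Fkbp5, a co-chaperone that dampens the glucocorticoid receptor, had 71.6, 141 and 72.9 CPM, and its ratio of 24 h over 6 h was 1.02 (0.921 to 1.12). Ddit4, an inhibitor of the growth kinase mTOR, had 52.6, 158 and 71.2 CPM and was 1 of only 9 genes at least 2-fold higher at 12 h than at both other times, among 11301 measured in both steps. Tsc22d3, which encodes the anti-inflammatory mediator GILZ, had 671, 988 and 652 CPM, and Pik3ip1 had 124, 197 and 93.8 CPM. A few members stayed high at 24 h: Cebpd, a C/EBP factor of myeloid cells, had 48.6, 101 and 118 CPM and rose, and Dusp1, a phosphatase that restrains MAP kinases, had 176, 465 and 345 CPM.

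The clock gene Per1, which glucocorticoids also induce, had 60.6, 107 and 52.9 CPM, whereas its relative Per2 had 10.5, 18.3 and 20.1 CPM. Over the 15 measured genes of the negative arm and outputs of the clock, the median log2 ratio was 0.01. Of these, 0 were called rising or falling, where 3.04% and 0.193% of all genes were. Arntl, the core activator of the clock, had 21.1, 19.2 and 22.0 CPM, and Dbp, an output gene with a strong daily rhythm in many tissues, had 8.37, 8.52 and 6.97 CPM. Nr1d1, the repressor REV-ERB alpha, had 37, 39 and 17 counts, a ratio of 0.446 (0.236 to 0.813). Nfil3, a repressor that acts against Dbp and that inflammatory signals also induce, had 12.0, 29.5 and 34.3 CPM and rose.

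The other stress lists had medians above 0 and some members that rose, where 3.04% of all genes did. The median log2 ratio was 0.26 for cold-inducible and heat shock genes (2 of 15 tested rose), 0.27 for endoplasmic reticulum stress (3 of 18), 0.42 for oxidative stress (3 of 18) and 0.44 for immediate early genes (2 of 20). Of the heat shock genes Hspa8, a constitutive chaperone, had 634, 740 and 1082 CPM and was not called, while Hspa1b, an inducible one, had 18, 40 and 72 counts and rose. Its near copy Hspa1a had 4, 29 and 34 counts. Cirbp, which cold induces and warmth represses, had 125, 122 and 80.3 CPM, with a ratio of 0.640 (0.588 to 0.697). Xbp1, the transcription factor of the unfolded protein response and of plasma cells, had 83.9, 149 and 220 CPM and rose (log2 fitted change 1.38 ± 0.18, standard error, edgeR adjusted p = 0.000758), and Sdf2l1, an endoplasmic reticulum protein, had 8.73, 8.72 and 22.0 CPM and rose. Hmox1, which degrades haem, had 15.3, 29.4 and 38.7 CPM and rose. Of the immediate early genes Fos had 71.1, 90.9 and 144 CPM and Ier3 had 3.49, 13.5 and 14.7 CPM, and both rose. In metabolism, Hk2, which commits glucose to glycolysis, had 15.0, 15.6 and 32.1 CPM, Egln3, a prolyl hydroxylase that low oxygen induces, had 7.45, 11.3 and 16.3 CPM, and Lpl, the lipoprotein lipase, had 6.80, 5.75 and 24.2 CPM. All 3 rose. The median was 0.28 for the glycolysis and hypoxia list and -0.01 for the lipid use list, against -0.02 for all genes.

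Platelet genes were lower at 24 h in all 18 measured members, with a median log2 ratio of -0.53 and a range from -0.85 to -0.21, against 53% of all genes below 0. None of the 18 was 2-fold lower, and 0 fell by the edgeR trend test at adjusted p under 0.05, where 0.193% of all genes did. At 12 h 15 of them had their highest value, against 30.8% of all genes. Their summed level was 14046, 15681 and 9857 CPM. Treml1, a receptor of platelet granules, had 194, 201 and 108 CPM and a ratio of 0.556 (0.518 to 0.597). Itga2b, a chain of the fibrinogen receptor, had 1784, 2270 and 1267 CPM, and Ppbp, a platelet chemokine, had 1952, 2063 and 1336 CPM. Tubb1, the platelet tubulin, was lower at each step, with 1019, 838 and 582 CPM.

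None of the 12 lowest ratios among abundant genes belonged to the platelet list. The cyclic nucleotide phosphodiesterases Pde5a and Pde3a, which set how easily platelets activate, had 110, 87.8 and 53.1 CPM and 28.3, 16.6 and 11.7 CPM. Both fell, with log2 fitted changes from 6 to 24 h of -1.05 ± 0.18 for Pde5a and -1.29 ± 0.23 for Pde3a (standard errors, edgeR adjusted p = 0.00416 and 0.00475). Ly6g6f, a platelet surface protein, had 23.9, 22.7 and 9.56 CPM and fell, as did Cttn, the actin regulator cortactin, with 28.4, 19.9 and 13.8 CPM, and Serpine2, a thrombin inhibitor, with 37.5, 35.2 and 18.5 CPM. Il9r, the receptor of interleukin-9, had the lowest ratio among abundant genes, 0.379 (0.309 to 0.463), with 32.7, 16.2 and 12.4 CPM, and fell (edgeR adjusted p = 0.00306). Adcy5, an adenylate cyclase, had 14.1, 11.7 and 5.45 CPM and fell. Mest, with 57.5, 46.4 and 33.0 CPM, and Plvap, with 141, 100 and 47 counts, also fell. The remaining 5 of the 12, Tpm2, Zc3h6, Tom1l1, Camk2b and Hist1h1c, had ratios of 0.472, 0.474, 0.499, 0.513 and 0.530 and were not called.

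Replication-dependent histones and mitochondrially encoded genes were lower at 24 h too, both after 12 h. The histone list had a median log2 ratio of -0.53 over 7 measured genes, with 0.25 for 12 h over 6 h and -0.74 for 24 h over 12 h. Hist1h1c, a linker histone, had 581, 701 and 307 CPM. The 8 measured mitochondrial genes all lay below 0, against 53% of all genes, with a median of -0.44. Among them mt-Co1, a subunit of cytochrome oxidase, had 6953, 6478 and 5108 CPM. Counts summed over mitochondrial genes were 1.64%, 1.60% and 1.21% of each library, a measure that also moves with RNA quality, whose part in these results was not tested. That share leaves some genes almost uncounted. Of 13 listed, those below the count minimum included mt-Co2, with 9, 10 and 7 counts, and mt-Co3, with 21, 18 and 20. Ribosomal protein genes had a median of -0.14, with 22 of 26 highest at 12 h, against 30.8% of all genes. Of the genes of mitosis and DNA replication 1 of 20 tested fell, against 0.193% of all genes. It was Ube2c, a ubiquitin-conjugating enzyme of mitosis, with 52.3, 30.3 and 30.1 CPM.

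Red cell genes had a trough at 12 h. Of 19 measured members 18 had their lowest value at 12 h, against 31.4% of all genes. The median log2 ratio was -0.73 for 12 h over 6 h and -0.26 for 24 h over 6 h. Under SASD the list median was -0.31 for 12 h over 6 h and 0.52 for 24 h over 6 h. Alas2, the enzyme that starts haem synthesis in red cells, had 4208, 2518 and 3567 CPM. The part of red cell RNA in the other 12 h values was not tested; scaling without the haemoglobin genes gave 2-fold counts within 1.5 times of those above.

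Lymphocyte genes were slightly lower at 24 h. B cell markers were below 0 in 17 of 19 measured genes with a median log2 ratio of -0.24, and T cell markers in 17 of 20 with a median of -0.21. Of all genes 53% were below 0. None of either list was 2-fold lower, and 0 fell, where 0.479% and 0.193% of all genes did, so lists of this size would hold few or none. Bach2, a transcriptional repressor of B cells, had 207, 163 and 148 CPM. Cd3e, a chain of the T cell receptor complex, had 143, 152 and 123 CPM. For the T cell list 14 of 20 genes were highest at 12 h, against 30.8% of all genes. For the B cell list 11 of 19 were lowest then, against 31.4%. MHC class II genes, carried by B cells and dendritic cells, had a median of -0.28, and H2-Aa had 1142, 1029 and 938 CPM. Markers of natural killer and cytotoxic cells had a median of 0.15, with Ncr1, an activating receptor, at 34.5, 34.1 and 39.4 CPM and Gzmb, a cytotoxic granule protease, at 272, 319 and 418 counts, and none was called. Among the lists not yet given, the median log2 ratio was 0.28 for plasma cells and for cholesterol and fatty acid synthesis, 0.13 for the ageing of circulating neutrophils, 0.09 for prostaglandins and leukotrienes, -0.01 for lymphocyte egress and homing, and -0.04 for MHC class I.

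The same interval under SASD had other values, but edgeR called the difference between the methods in 0 genes at the settings used here. Of 11230 genes measured there, 51 were at least 2-fold higher at SASD 24 h than at SASD 6 h (0.454%) and 179 lower (1.59%). The genes that were 2-fold higher under SD had a median log2 ratio of 1.29 under SD and -0.01 under SASD. They were chosen by their SD ratio, so the high SD median was fixed in advance. A lower median in another pair of libraries could follow from that choice alone. Of the 329 that were measured under SASD, 7 were 2-fold higher there as well, against 0.454% of all genes measured there. For the mature neutrophil list the median was 1.30 under SD and 0.06 under SASD, with the SD ratio the larger in 22 of 22 genes. For the classical monocyte list it was 1.20 and 0.01, with the SD ratio the larger in 15 of 16. Over all genes measured under SD, the SD ratio was the larger in 5877 of 11478. For the platelet list it was -0.53 under SD and 0.44 under SASD. The SASD 24 h library was the shallowest of the 6, with 7825120 counts and 6.96% haemoglobin.

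At the level of single genes, Lrg1 had 68.8, 335 and 417 CPM under SD and 72.1, 35.3 and 93.8 CPM under SASD at 6, 12 and 24 h. Ccr2 had 163, 126 and 498 CPM under SD and 198, 69.0 and 213 CPM under SASD, with a dip at 12 h under both. Some of the largest differences had the same direction under both: Chil3 had a log2 ratio of 24 h over 6 h of 3.02 under SD and 1.90 under SASD, and Vcan of 2.61 and 1.28. Treml1 had 194, 201 and 108 CPM under SD and 193, 207 and 256 CPM under SASD.

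The slope under SD minus the slope under SASD, fitted on the 6 libraries with 2 residual degrees of freedom, was called by edgeR in 0 of 12841 genes. Without adjustment 966 genes had a p under 0.05, against 642.05 that unchanged genes would give. DESeq2 called 21 genes, limma 0, and edgeR 11 when the minimum mean count was 1. The lowest edgeR adjusted p was 0.241, shared by S100a6, Ear2, Treml4, Krt80, Clec4a3 and Ifitm6. S100a6, a calcium-binding protein, had 45.9, 74.2 and 122 CPM under SD, and its slope difference was 0.88 ± 0.12 log2 units per doubling of the hours (standard error). Ear2 had a log2 ratio of 24 h over 6 h of 0.95 under SD and -1.45 under SASD, and Treml4 of 0.94 and -1.27. In counts simulated for these libraries the fit recovered 8% of genes whose slopes differed by 2-fold over the interval and 53% of those that differed by 4-fold, so a true difference could readily be missed.

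**Figure D5:**
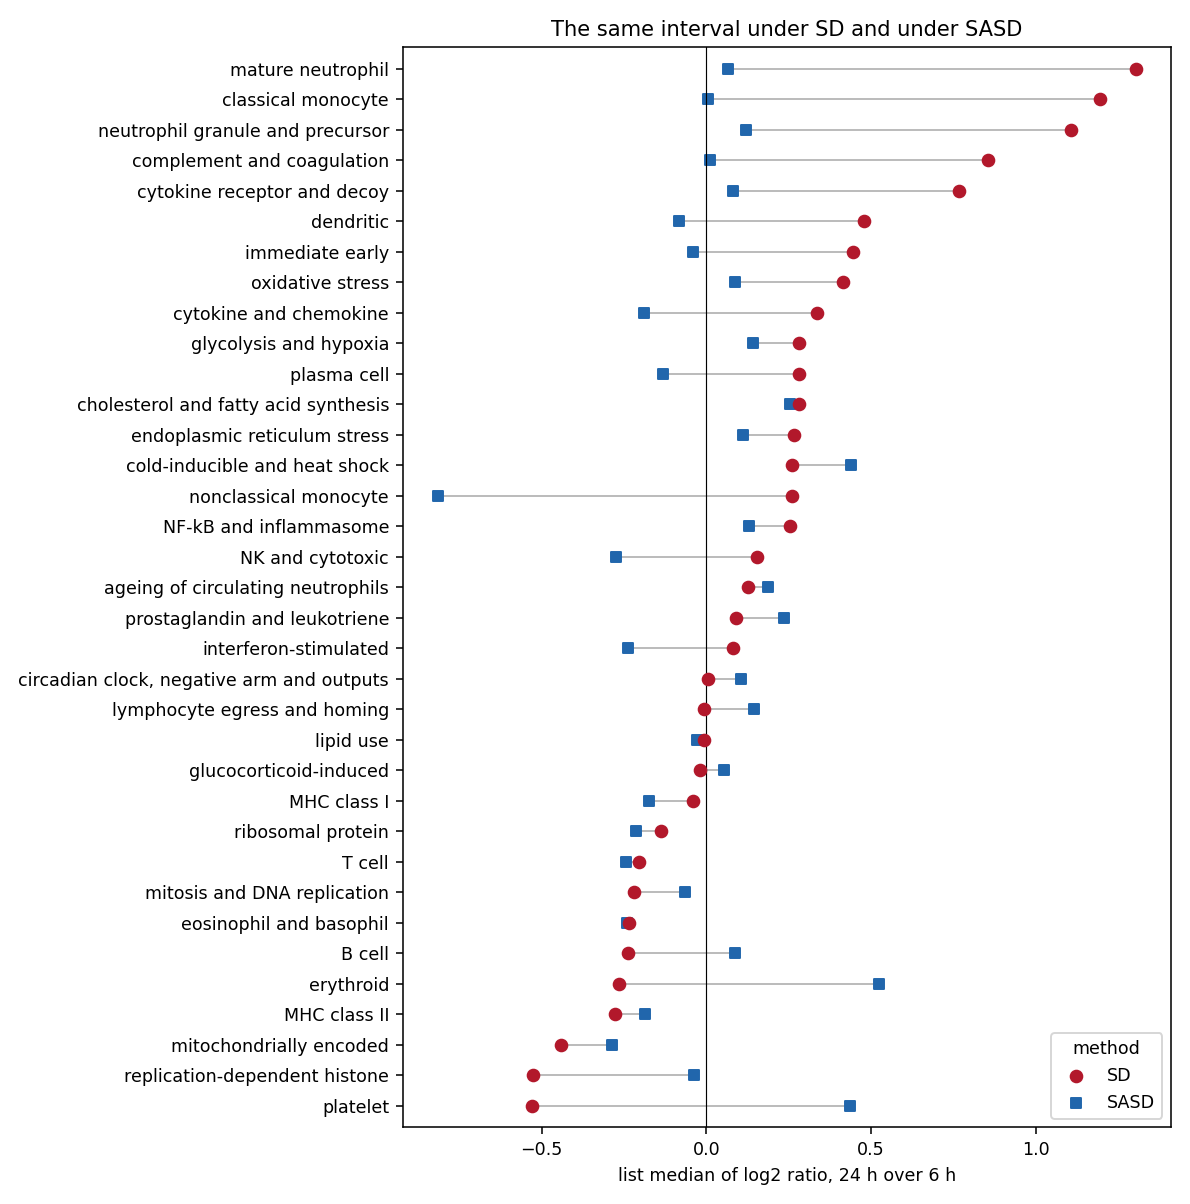
Median log2 ratio of 24 h over 6 h of each gene list under SD and under SASD, with 1 library of 3 pooled mice at each time. The mature neutrophil and classical monocyte lists lie at 1.30 and 1.20 under SD and near 0 under SASD, and the platelet list lies at -0.53 under SD and 0.44 under SASD.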

How the data were processed

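RNA of mouse blood was sequenced in 10 pooled libraries, each in a group of its own by its label. The tools named in the submitters' processing notes are Trimmomatic 0.39 for trimming and STAR 2.7.9a for alignment, with mm10 as the build. Per the file headers the deposited raw counts are read pairs over exons per gene from featureCounts 2.0.3 with no strand option, so overlapping and antisense genes are uncertain. Of 32285 genes 32158 matched a symbol.

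Libraries were scaled by TMM (edgeR 4.0.16, R 4.3.3). Ratios used a prior count of 2 for ranks, medians and counts of 2-fold genes (mean count 25 or more) and none where a single gene's ratio is printed. The edgeR quasi-likelihood fits used genes averaging 10 counts or more. On simulated counts the trend fit recovered 57% of 2-fold and 85% of 4-fold changes, with 6 false calls among 148. The share of false calls in the measured libraries was not tested, as no time had a replicate library. Of 659 list entries 656 matched. Named genes were the 12 highest and 12 lowest ratios averaging 100 counts or more, the 6 lowest p of each fit and direction, and from each list the first 3 members and the 3 with the largest change, some left out (a few are not reported here) and others chosen after their values were seen. Members and lists were chosen with earlier results of these data known. Alternatives tried were DESeq2 1.42.0, limma 3.58.1, other scalings, count minimums, prior counts and hours on a linear scale.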

Additional observations from a re-analysis of the deposited data

Results flagged for a closer look

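In 5 gene lists the median log2 ratio of 24 h over 6 h lay on opposite sides of 0 under SD and under SASD by at least 0.5, a difference that was not tested. The nonclassical monocyte list had a median of 0.26 under SD and -0.82 under SASD. The platelet list had -0.53 under SD and 0.44 under SASD, with every measured member below 0 under SD and 17 of 18 above 0 under SASD. The erythroid list had -0.26 under SD and 0.52 under SASD, with 18 of 19 members below 0 under SD and 19 of 19 above 0 under SASD. Of all 11478 genes measured under SD, 6079 lay below 0 under SD and 5711 above 0 under SASD. The dendritic list had 0.48 under SD and -0.08 under SASD, and the cytokine and chemokine list had 0.33 under SD and -0.19 under SASD. Each value comes from 1 library per time, and the SASD 24 h library held 6.96% haemoglobin counts, against 6.07% at SASD 6 h, whose part in these differences was not tested.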

How the results depend on the processing

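Every result rests on 1 pooled library per time, and counting intervals leave out the spread between mice. No list median at least 0.5 from 0 changed sign under any alternative that was run. Of the smaller medians in lists of 5 or more measured genes, those for lymphocyte egress and lipid use crossed 0 by under 0.02 with other scalings. With a minimum mean count of 1 the list of the negative arm of the clock had -0.02 in place of 0.01 and the glucocorticoid list 0.02 in place of -0.02, and the eosinophil and basophil list had 0.35 in place of -0.23 with a minimum of 100. Other scalings (DESeq2 size factors, library totals, TMM without haemoglobin genes) moved the median of all genes by at most 0.02. With a minimum mean count of 100 in place of 25, the genes 2-fold lower at 24 h than at 6 h numbered 10, the first step had 81 higher and 9 lower, the second had 89 higher and 18 lower, and 1 list, the platelet one, stood at least 0.5 below all genes, since only 4 histone genes were left. With a minimum of 1 the same counts were 950 higher and 665 lower for 24 h over 6 h, 981 higher and 461 lower for the first step, 695 higher and 896 lower for the second, and again 1 list lower, the platelet one, with the histone median at -0.47. With a prior count of 10 the lower genes were 26, 19 and 35. The trend called 244 rising and 6 falling genes with DESeq2 size factors, 158 and 4 with a minimum of 100, 151 and 2 with DESeq2's Wald test, 233 rising with hours on a linear scale, and 0 and 0 in the fit shared with SASD. The slope difference was above 0 in 21 genes with DESeq2 and in 11 with a minimum of 1. Apart from the changed number of genes or samples, the cause was not tested. No paired analysis was possible because each group had a single library.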
